A study of Saccharomyces cerevisiae with 6 samples.

Results

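The genes examined here encode the yeast proteasome. They number 34 of the 5449 S. cerevisiae genes measured on the arrays, and they were chosen by name: subunits of the 20S core, of the base and of the lid, together with an assembly chaperone, a tethering factor and a transcriptional regulator. None lies on chromosome X. The core was represented by 13 genes (7 of the alpha ring and 6 of the beta ring), the base by 10, the lid by 8, assembly and tethering by UMP1 and ECM29, and regulation by RPN4. Each of the 34 was read by 1 probe set with a value in all 6 arrays.

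A pair of labelled groups of the haploid laboratory strain BY4741 were compared. The first comprised 3 arrays labelled as a deletion of YPR045C (THP3) in BY4741, and the second 3 arrays labelled BY4741 wild type. Both groups were grown exponentially in YPD, a rich glucose medium, and BY4741 is known to carry deletions in HIS3, LEU2, MET17 and URA3. Biotin-labelled cRNA made from total RNA was hybridised to Affymetrix arrays. Nothing in the labels ties replicates to different cultures, and each p-value reflects only how far these arrays scattered, possibly for technical reasons. In RNA from whole cultures, fewer cells that express a gene and less RNA per cell cannot be told apart.

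The proteasome degrades proteins tagged with ubiquitin, and dividing yeast cannot live without it. Its 20S core is a stack of alpha and beta rings that encloses the proteolytic sites. The 19S regulatory particle binds the core ends: its base holds a ring of ATPases that unfold substrates, and its lid removes the ubiquitin chain. In yeast most of these genes share a transcriptional activator, Rpn4, which is itself a very short-lived proteasome substrate, so that its level rises when proteolysis is impaired.

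Levels were quantile normalized and are given as log2(intensity + 16), and differences are those of the arrays labelled deletion minus the arrays labelled wild type. A gene was called where limma gave a Benjamini-Hochberg adjusted p under 0.05 over all 5449 genes. The deposited intensity of an array summed to between 17790600 and 18431400. Array values correlated at 0.9949 to 0.9970 within a labelled group and at 0.9808 to 0.9846 between the groups, across 5437 genes. The target gene went against its label: THP3 stood at 9.93, 9.82 and 9.10 in the arrays labelled deletion, against 9.51, 9.43 and 8.94 in those labelled wild type (difference 0.33 ± 0.25 SE, limma adjusted p = 0.39). No table used here places its probes within the gene. One reporter probe set, singled out because its values were known, stood at 5.41 ± 0.09 in the arrays labelled deletion and at 14.11 ± 0.03 in those labelled wild type (SD, n = 3 each). Groups are therefore named by their labels, and every direction rests on those labels. The 316 measured genes of chromosome X had a median difference of -0.79. The 2 arrays numbered 3 deviated together from their group means (r = 0.61 across genes), whereas the arrays numbered 1 (r = -0.15) and 2 (r = -0.026) did not. Across numbers, deletion array 1 went with wild type array 2 (r = 0.48) and deletion array 2 with wild type array 1 (r = 0.47). The remaining pairs between the labels had negative r. Deviations from a group mean sum to 0 over its arrays, so positive r in some pairs forces negative r in others. Of the genes that mark the MATa mating type of this strain, all 6 stood well over the background limit of 6.48 (STE2, the alpha-factor receptor, at 13.59 in the arrays labelled deletion and 13.55 in those labelled wild type). The a-factor gene MFA1 was called higher (0.50 ± 0.05 SE, limma adjusted p = 6.51e-04). STE3, the receptor of the opposite mating type, averaged 7.10 in the arrays labelled deletion and 6.64 in those labelled wild type, a difference of 0.45 ± 0.13 near the limit (limma adjusted p = 0.048). The part of these mating-type genes in the proteasome values was not tested. Of the marker genes, MET17 and URA3 lay below the limit in both groups. HIS3 (11.60 in the arrays labelled deletion, 11.55 in those labelled wild type) and LEU2 (8.52 and 8.79) lay above it. Whether either goes against the strain's name cannot be told, because the positions of their probes relative to the deleted parts were not known.

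Proteasome genes differed little between the groups. Across the 34 genes the median log2 difference was -0.048, a change of -3.28%, and the values ran from -0.25 (UMP1) to 0.062 (PRE9). Over all 5449 genes the median was 0.034, so the proteasome median lay at -0.082 relative to it. Of the 34 genes 28 had a difference below 0, which is 82.4%, where 40.2% of all genes did. Outside chromosome X, where all 34 lie, 36.6% of genes were below 0 and the median was 0.043. A difference of at most 0.10 in either direction was found for 27 of the 34. The 95% interval lay wholly within 0.25 of 0 for 30 of them.

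The test called 2 proteasome genes lower in the arrays labelled deletion, ECM29 and RPT6, and 0 higher. That is 5.88% called lower. Of all genes tested 10.2% were called lower and 11.6% higher, and outside chromosome X, where all 34 genes lie, 5.05% and 12.3%. The share called lower was thus near that of the other genes outside chromosome X. At an unadjusted p under 0.05, 5 proteasome genes were lower and 0 higher, against 787 (14.4%) and 1162 (21.3%) of all 5449, or 9.45% and 22.6% of those outside chromosome X. The arrays of the groups did not overlap for 11 proteasome genes, all lower in the arrays labelled deletion. That is 32.4% of them. In that direction 16.2% of all genes were apart and 11.3% of those outside chromosome X, and in the other 25.1% and 26.6%. Both the size and the direction of these small values move with the scaling of the arrays: the median of all genes shifted by -0.12 with median centring, and all 34 genes then lay below 0. The proteasome median relative to that of all genes moved less. It was -0.082 in the main setting and -0.083 both as deposited and with median centring, and ran from -0.098 to -0.067 over the alternatives.

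**Figure D1:**
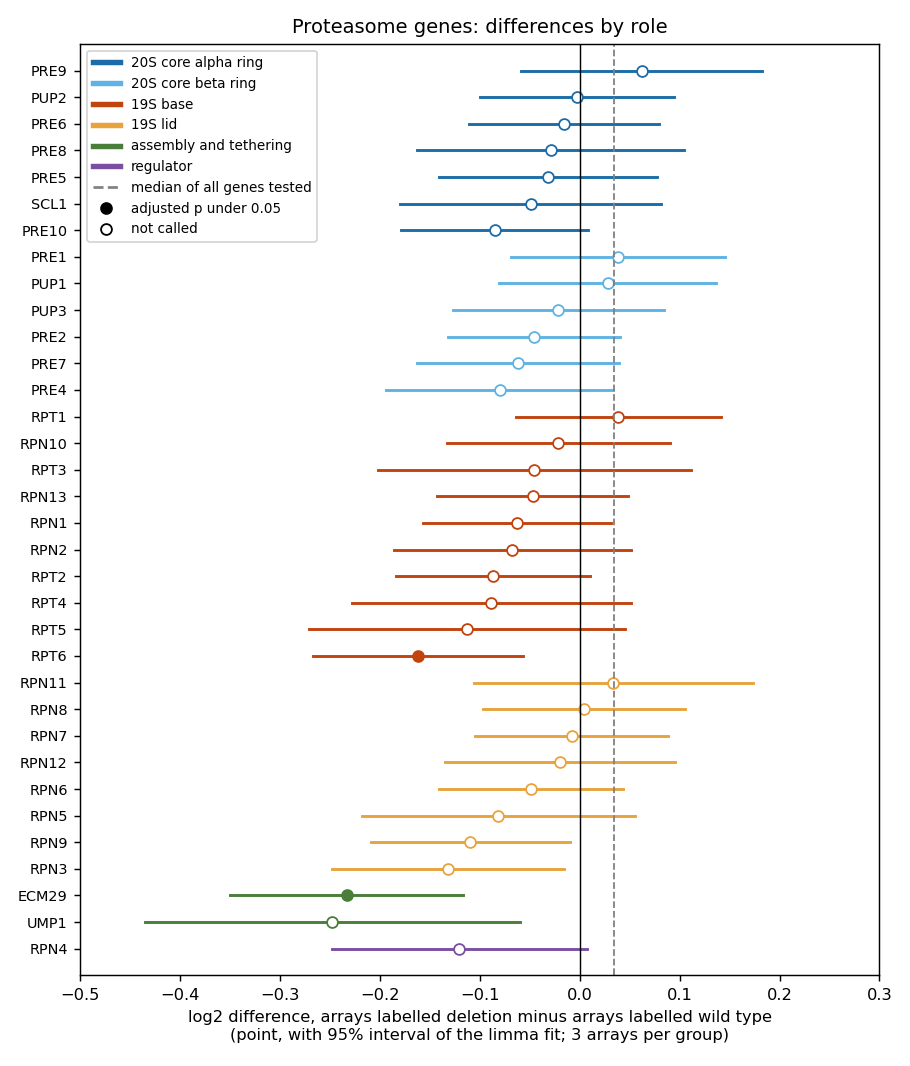
Log2 difference of each of the 34 proteasome genes (arrays labelled deletion minus arrays labelled wild type) with the 95% interval of the limma fit, 3 arrays per group, coloured by role. Filled points mark ECM29 and RPT6, the genes with an adjusted p under 0.05, and 28 points lie below 0, left of the dashed line at 0.034, the median of all genes tested.

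The spread between proteasome genes was narrow. The SD of their log2 differences was 0.070, and 0.053 over the 31 subunits of core, base and lid, beside 0.24 over the 5133 genes outside chromosome X. The median SE of a single proteasome gene was 0.046, so most of the differences among the subunits were of the size of the measurement error. Differences were measured in probe sets as bright as these. At the mean levels covered by the subunits, 11.81 to 13.17, all 60 genes of chromosome X were called lower, with a median of -0.72. The 789 other genes in that range had a median of 0.043 and an SD of 0.21, with extremes of -1.33 and 2.32. Their quartiles were -0.028 and 0.12, beside -0.081 and -0.012 for the 31 subunits, a smaller contrast than the SDs give. This range of levels was looked at after the data had been seen.

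**Figure D2:**
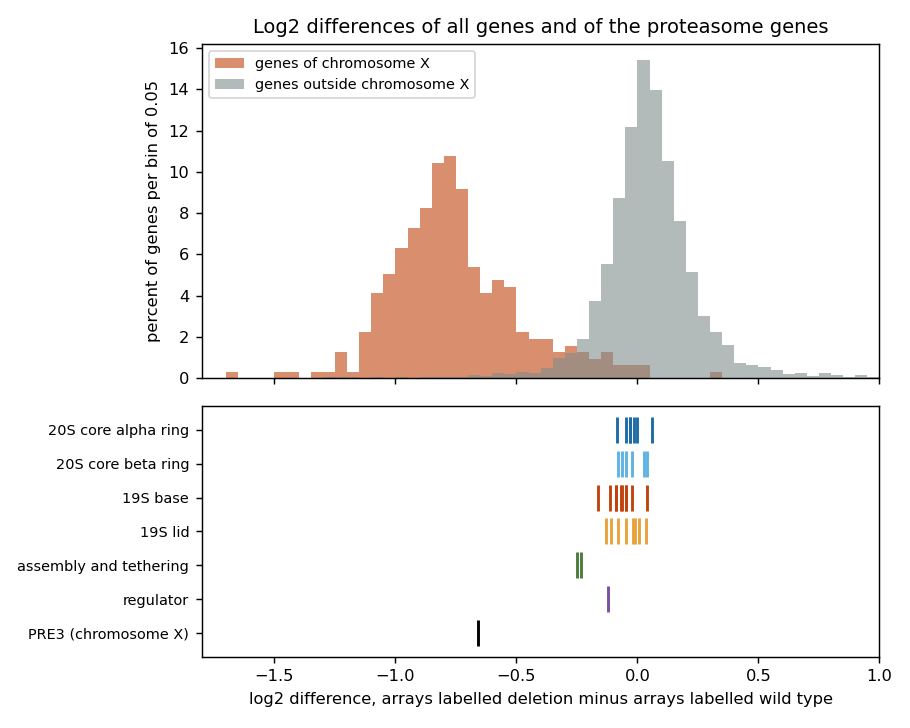
Upper panel, log2 differences (arrays labelled deletion minus arrays labelled wild type) as a percentage of genes per bin of 0.05, for genes of chromosome X and for genes outside it. 20 genes outside chromosome X lie beyond the axis. Lower panel, the proteasome genes as ticks by role. The subunits sit between -0.16 and 0.062, UMP1 and ECM29 near -0.24, and PRE3, which lies on chromosome X, at -0.66.

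None of the 20S core genes was called. The core is built of paired outer alpha rings, which gate entry, and inner beta rings, which carry the proteolytic sites. Its 13 genes had a median of -0.029, from -0.085 to 0.062, and every one of them lay within 0.10 of 0. Their limma adjusted p ran from 0.17 to 0.97, and 0 reached an unadjusted p under 0.05. The alpha ring median was -0.029 and the beta ring median -0.034, with SDs over genes of 0.045 and 0.048.

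In the alpha ring the highest difference was that of PRE9, which encodes the only core subunit yeast can live without. PRE9 stood at 12.75, 12.79 and 12.87 in the arrays labelled deletion, against 12.69, 12.74 and 12.79 in those labelled wild type. The groups overlapped, and the difference was 0.062 ± 0.050 (SE, limma adjusted p = 0.43). At the other end PRE10, the alpha7 gene, stood at 12.93, 12.97 and 12.92, against 13.04, 13.03 and 13.00 in the arrays labelled wild type. All 3 arrays labelled deletion lay below all 3 labelled wild type, yet the difference of -0.085 ± 0.039 was not called (limma adjusted p = 0.17). Between them lay SCL1 (alpha1) at -0.049, PRE5 (alpha6) at -0.032, PRE8 (alpha2) at -0.029, PRE6 (alpha4) at -0.015 and PUP2 (alpha5) at -0.0028, and the groups overlapped for each of these 5.

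Among the beta ring genes, PRE2 encodes the subunit with the chymotrypsin-like site and PUP1 the one with the trypsin-like site. PRE2 stood at 13.15, 13.15 and 13.14 in the arrays labelled deletion and at 13.19, 13.20 and 13.19 in those labelled wild type. These arrays differed so little within a group (SD 0.0030 and 0.0067) that the groups were apart at a difference of -0.046 ± 0.036. Limma, which pools the spread over genes, did not call it (adjusted p = 0.42; 0.0071 to 0.58 over the alternatives, the lowest from a test without pooling, which did call it). PUP1 differed by 0.028 ± 0.046 and overlapped. PRE1 (beta4) stood at 12.85, 12.94 and 12.96 in the arrays labelled deletion, against 12.89, 12.86 and 12.89 in those labelled wild type, a difference of 0.038 ± 0.045 with overlapping groups (limma adjusted p = 0.59). The structural subunit genes PUP3 (beta3), PRE7 (beta6) and PRE4 (beta7) differed by -0.021, -0.062 and -0.080. Of these PRE7 alone had groups that did not overlap.

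The remaining core gene, PRE3 (YJL001W), encodes beta1, which carries the caspase-like site, and is not among the 34 because it lies on chromosome X. It stood at 12.82, 12.86 and 12.87 in the arrays labelled deletion and at 13.55, 13.50 and 13.49 in those labelled wild type. The difference of -0.66 ± 0.04 (limma adjusted p = 6.21e-05) was called in all 18 alternatives in which PRE3 was kept. Of the 316 measured genes of chromosome X, 295 (93.4%) were called lower, and the median of the 316 was -0.79. A lower value was thus not particular to PRE3. The 6 beta ring genes on other chromosomes lay between -0.080 and 0.038, so that the beta1 transcript differed between the groups and those of its partner subunits did not pass the test.

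The base had the lowest median of the 3 subcomplexes, -0.065 over 10 genes, with 9 of 10 below 0. The core median was -0.029 and the lid median -0.034. The base was lowest in all 19 alternatives, whereas core and lid changed places without wild_type replicate 2 (core -0.043, lid -0.027) and without both arrays numbered 3 (core -0.033, lid -0.031). The differences between these medians were not tested. The base comprises the ATPases Rpt1 to Rpt6 and the non-ATPase subunits Rpn1, Rpn2, Rpn10 and Rpn13. The ATPase genes had a median of -0.088 and covered the whole range of the base, from -0.16 to 0.039.

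RPT6 (YGL048C, chromosome VII), which encodes the Rpt6 ATPase, was the only one of the 31 subunit genes called. It stood at 12.98, 13.03 and 13.02 in the arrays labelled deletion, against 13.11, 13.20 and 13.20 in those labelled wild type. The deposited intensities averaged 8154 ± 164 and 9335 ± 131 (SD, n = 3 each), and the groups did not overlap. The difference of -0.16 ± 0.04 (SE, 95% interval -0.27 to -0.057) was a change of -10.6% (limma adjusted p = 0.043; exact permutation p = 0.1, the smallest that 3 against 3 arrays can give). The call was a narrow one. It was lost without wild_type replicate 2 (limma adjusted p = 0.11), wild_type replicate 3 (0.11), or ypr045c_deletion replicate 1 (0.13), 2 (0.099) or 3 (0.087), and without both arrays numbered 3 (0.15), over a range of 0.0076 to 0.15. The difference itself stayed between -0.29 and -0.15.

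The other ATPase genes did not pass. RPT1 lay highest, at 12.99, 12.99 and 13.03 in the arrays labelled deletion and at 12.93, 12.94 and 13.02 in those labelled wild type, a difference of 0.039 ± 0.043 with overlapping groups (limma adjusted p = 0.57). RPT2, RPT3 and RPT5, whose protein tails dock into the alpha ring to open its gate, differed by -0.087 ± 0.041, -0.045 ± 0.065 and -0.11 ± 0.07. RPT2 alone of these had groups that did not overlap. RPT4 differed by -0.088 ± 0.058 and overlapped.

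The scaffold genes of the base, RPN1 and RPN2, differed by -0.063 ± 0.039 and -0.068 ± 0.050. RPN1 stood at 13.03, 13.06 and 13.10 in the arrays labelled deletion, against 13.12, 13.14 and 13.12 in those labelled wild type, so that its groups were just apart, whereas those of RPN2 overlapped. The ubiquitin receptor genes RPN10 and RPN13 differed by -0.022 ± 0.047, with overlapping groups, and by -0.047 ± 0.040, with groups apart. None of these 4 was called (limma adjusted p = 0.30 to 0.78).

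The lid median was -0.034 over 8 genes, with 6 below 0 and 0 called. The lid is a horseshoe of scaffold subunits around the deubiquitinase Rpn11 and its partner Rpn8. These catalytic and partner genes had its highest differences, RPN11 at 0.034 ± 0.058 and RPN8 at 0.0045 ± 0.0424, with overlapping groups in each.

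RPN3 and RPN9, scaffold genes of the lid, were its lowest. RPN3 stood at 12.32, 12.30 and 12.29 in the arrays labelled deletion, against 12.41, 12.51 and 12.37 in those labelled wild type. RPN9 stood at 12.51, 12.49 and 12.51, against 12.58, 12.66 and 12.59 in the arrays labelled wild type. For both, every array labelled deletion lay below every array labelled wild type. The differences of -0.13 ± 0.05 and -0.11 ± 0.04 had 95% intervals that left out 0 (-0.25 to -0.015, and -0.21 to -0.010) but did not pass over all genes (limma adjusted p = 0.10 and 0.11; 0.057 to 0.23 and 0.049 to 0.26 over the alternatives). Only without chromosome X genes in the normalization and fit was RPN9 called. The other scaffold genes RPN5, RPN6, RPN7 and RPN12 differed by -0.081, -0.049, -0.0083 and -0.020, and the groups overlapped for all 4.

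**Figure D3:**
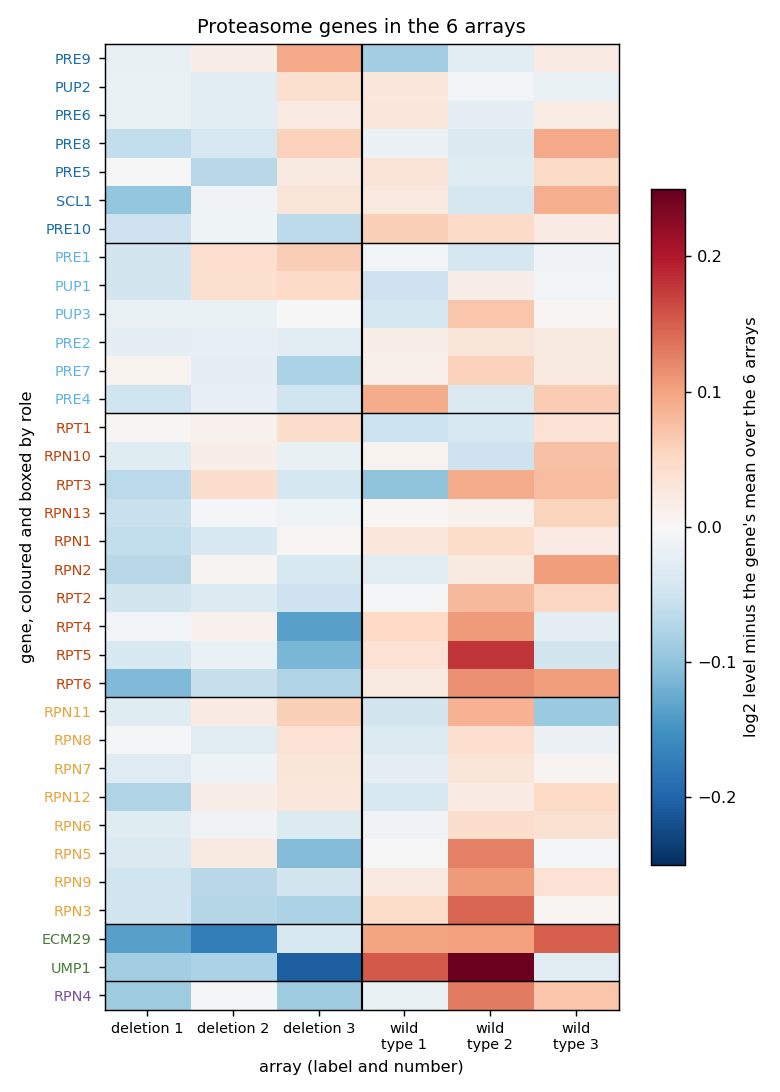
Level of each of the 34 proteasome genes in each array, as log2 level minus that gene's own mean over the 6 arrays, with the arrays labelled deletion left of those labelled wild type. ECM29, RPT6, RPN3 and RPN9 are among the genes below their mean in all 3 arrays labelled deletion, as are UMP1, RPN4, PRE2, PRE10 and RPT2.

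UMP1 and ECM29, which act outside the subcomplexes, had the lowest differences of the 34. ECM29 (YHL030W, chromosome VIII) encodes a large protein that tethers the regulatory particle to the core. It stood at 10.73, 10.69 and 10.82 in the arrays labelled deletion, against 10.96, 10.96 and 11.01 in those labelled wild type. On the deposited scale these were 1672 ± 62 and 2037 ± 24 (SD, n = 3 each), with no overlap. ECM29 thus fell by 0.23 ± 0.05 on the log2 scale (95% interval -0.35 to -0.12), a change of -14.9% (limma adjusted p = 0.016; exact permutation p = 0.1). It was called in 16 of 19 alternatives. The call was lost without wild_type replicate 3 (limma adjusted p = 0.052) and without ypr045c_deletion replicate 1 (0.064) or 2 (0.063), over a range of 0.0023 to 0.064.

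UMP1 (YBR173C, chromosome II) encodes the chaperone of core assembly, which becomes the first substrate of the finished particle. Its difference was the lowest of the 34, -0.25 ± 0.08 (95% interval -0.44 to -0.060), a change of -15.8%. It stood at 11.51, 11.52 and 11.39 in the arrays labelled deletion, against 11.75, 11.84 and 11.57 in those labelled wild type, and the groups did not overlap. It missed the threshold (limma adjusted p = 0.067), with the array numbered 3 the lowest of its group in both. With the arrays numbered 3 as a term of the fit the limma adjusted p was 0.011, without both arrays it was 0.036 at a difference of -0.28, and over all alternatives it ran from 0.0015 to 0.17. UMP1 was called lower in 6 of 19 alternatives.

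RPN4 (YDL020C, chromosome IV), the activator of proteasome genes, stood at 11.13, 11.21 and 11.13 in the arrays labelled deletion, against 11.20, 11.34 and 11.29 in those labelled wild type. Deletion array 2 lay within the range of the wild type arrays, and the difference was -0.12 ± 0.05 (95% interval -0.25 to 0.0070; limma adjusted p = 0.16). It was called only with median centring (adjusted p = 0.040, range 0.040 to 0.40). The arrays measure RPN4 mRNA, whereas the protein is controlled largely by its own degradation, which they do not show.

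**Figure D4:**
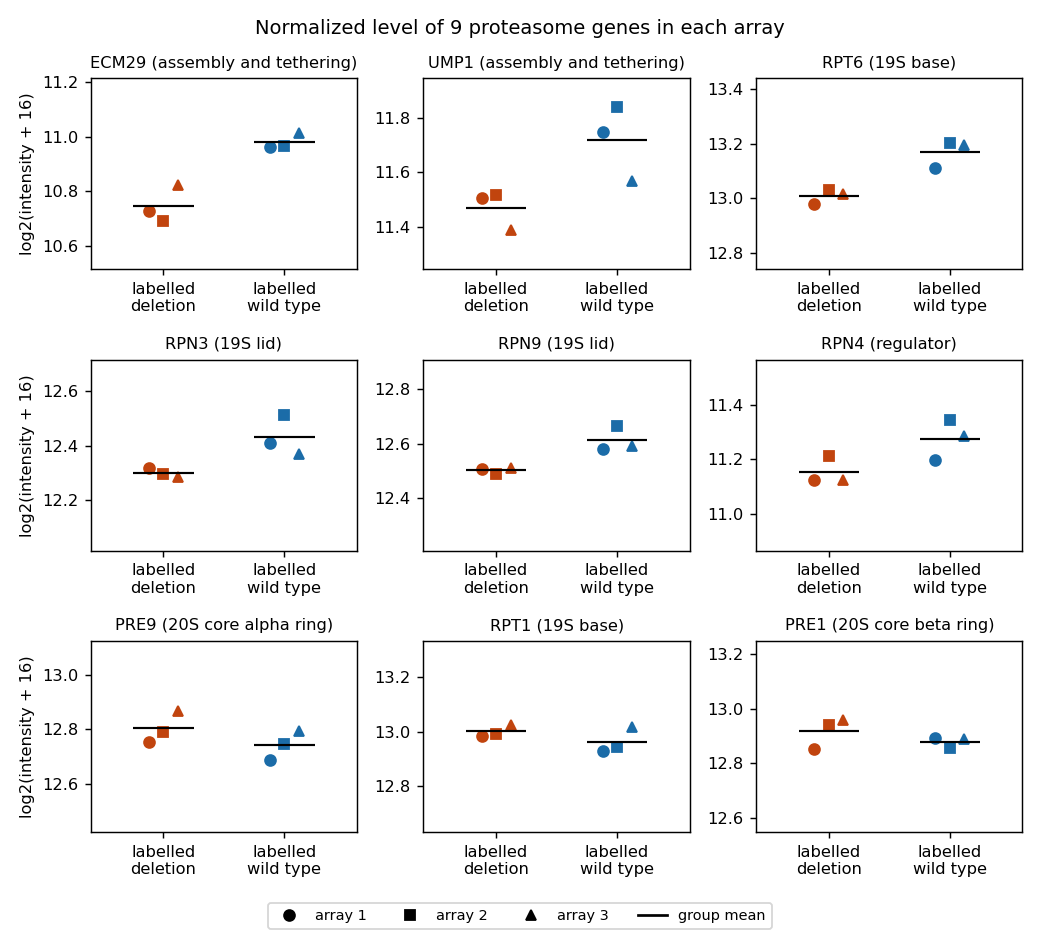
Normalized level, as log2(intensity + 16), of 9 proteasome genes in the 3 arrays labelled deletion (left in each panel) and the 3 labelled wild type (right). Symbols give the array number and bars the group mean. Every panel spans 0.7 on the log2 scale. The groups are apart for ECM29, UMP1, RPT6, RPN3 and RPN9 and overlap for RPN4, PRE9, RPT1 and PRE1.

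Within a labelled group the proteasome genes varied little from array to array. The median SD of a gene within its group was 0.044, beside 0.070 over all genes, which include dimmer ones. No such SD was taken at like levels. The median SE of a difference was 0.046 for the 34 genes and 0.060 over all genes. It was 0.054 over genes outside chromosome X at the mean levels of the 34, 10.86 to 13.17. Relative to their group means, 9 of 34 genes lay higher in deletion array 1, 21 in deletion array 2 and 19 in deletion array 3. In the wild type arrays the counts were 8, 22 and 20. The median deviation of an array lay between -0.024 (wild type array 1) and 0.017 (wild type array 2), beside a median difference of -0.048 between the labels.

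The arrays numbered 3 differed from arrays 1 and 2 of their own label by gene rather than as a whole. Array 3 lay above the mean of arrays 1 and 2 in both groups for 13 proteasome genes, below it in both for 8, and in opposite directions for 13. Across the 34 genes, which are not independent, the values of the labels correlated at r = 0.59 (Spearman rho = 0.44), and across all genes at r = 0.60 (rho = 0.51). The alpha ring was above in both groups for 5 of 7 genes. PRE8 was higher by 0.11 in deletion array 3 and by 0.12 in wild type array 3, SCL1 by 0.082 and 0.0996, and PRE9 by 0.097 and 0.078. UMP1 (-0.12 and -0.23), RPT4 (-0.14 and -0.10) and RPT5 (-0.087 and -0.15) were lower in both. Each label holds 1 such array.

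**Figure D5:**
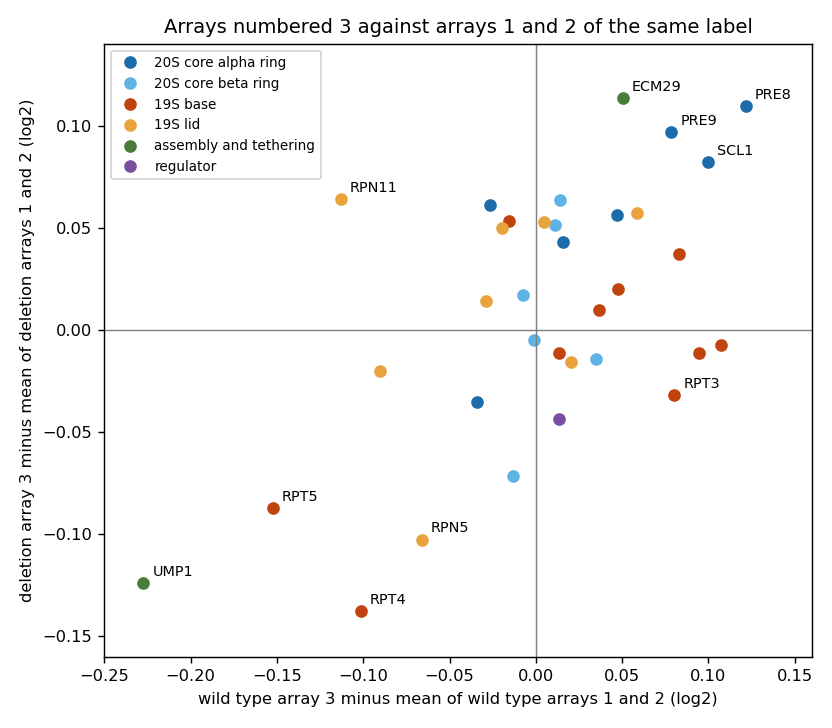
Array 3 minus the mean of arrays 1 and 2 of the same label, on the log2 scale, for each of the 34 proteasome genes: arrays labelled wild type on the horizontal axis, arrays labelled deletion on the vertical axis, coloured by role. PRE8, SCL1 and PRE9 lie at the upper right and UMP1, RPT4 and RPT5 at the lower left.

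Longer genes tended to have lower differences. Over the 34 genes, from 447 to 5607 bp, Spearman's rho was -0.39, and without ECM29 and UMP1 it was -0.47. Over the 5133 genes outside chromosome X rho was -0.21. Genes are not independent replicates, and role and length go together here: core genes are 597 to 867 bp and the ATPase genes of the base 1218 to 1404 bp. ECM29 is the longest of the 34. UMP1, at 447 bp the shortest, had the lowest difference of the 34, against this tendency. The 64 genes outside chromosome X of at least 5000 bp, ECM29 among them, had a median difference of -0.062. Of these 64, 6 were called lower, ECM29 included, and 3 higher. Of all 5133 genes outside chromosome X, 259 (5.05%) were called lower and 630 (12.3%) higher. ECM29 lay below that median. The part of length in the ECM29 result was not tested.

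Other genes tied to the proteasome showed no common direction. Of 16 further proteasome genes, 1 was called lower, PRE3, which lies on chromosome X, and 0 higher, with a median of 0.041. The other 15 lie outside chromosome X and were not called. Of all genes 10.2% were called lower and 11.6% higher, and of those outside chromosome X 5.05% and 12.3%. SEM1, the small lid subunit not among the 34, differed by 0.073 ± 0.047. The core assembly chaperone gene PBA1 (-0.14 ± 0.05, limma adjusted p = 0.087), STS1, which helps to bring proteasomes to the nucleus (-0.15 ± 0.06, 0.105), and CIC1, known chiefly from ribosome assembly (0.17 ± 0.05, 0.063), had groups that did not overlap and were not called. The core assembly chaperone genes ADD66 (0.13 ± 0.06, 0.16) and IRC25 (0.098 ± 0.048, 0.20) were apart in the higher direction and not called either. Of the 16 genes, 4 were apart and lower, PRE3 among them, and 4 were apart and higher. Over all genes tested 16.2% were apart and lower and 25.1% apart and higher. Of 6 genes that act on RPN4, 0 were called, beside 21.7% of all genes called in either direction. The multidrug resistance activators PDR1 and PDR3, which bind the RPN4 promoter, differed by 0.17 ± 0.06 and 0.18 ± 0.07 (limma adjusted p = 0.091 and 0.105). The heat shock activator gene HSF1 differed by -0.12 ± 0.07 (0.27), and the ubiquitin ligase gene UBR2, whose product marks Rpn4 for degradation, by 0.062 ± 0.068. The others, the oxidative stress activator gene YAP1 and MUB1, whose product works with Ubr2, differed by -0.10 ± 0.11 and 0.0088 ± 0.2613.

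Of 33 genes of the ubiquitin pathway upstream of the proteasome, 2 were called higher and 0 lower, at a median of 0.011, where 12.3% and 5.05% of genes outside chromosome X were called. RAD6, a ubiquitin-conjugating enzyme gene, stood at 11.34, 11.29 and 11.35 in the arrays labelled deletion, against 11.08, 11.11 and 11.14 in those labelled wild type (0.21 ± 0.04, limma adjusted p = 0.011). RAD23, whose product carries ubiquitinated proteins to the proteasome, stood at 12.32, 12.27 and 12.29, against 12.09, 12.05 and 12.10 in those labelled wild type (0.21 ± 0.04, limma adjusted p = 0.011). In both, all 3 arrays labelled deletion were the higher ones. With median centring neither was called (adjusted p = 0.67 for RAD6 and 0.51 for RAD23, the highest of their alternatives; the lowest were 0.0081 and 0.0046). Without both arrays numbered 3 the adjusted p was 0.052 and 0.055, without ypr045c_deletion replicate 1 it was 0.051 and 0.052, and without chromosome X genes RAD6 stood at 0.053.

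Next in p came the conjugating enzyme genes UBC5 (0.23 ± 0.07, limma adjusted p = 0.0502) and UBC6 (0.18 ± 0.06, 0.059), CUE1, whose product recruits a conjugating enzyme to the endoplasmic reticulum (0.21 ± 0.07, 0.064), and SAN1, a nuclear quality-control ligase gene (-0.19 ± 0.06, 0.083). In each of these 4 the groups were apart, and none was called.

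UBI4, the polyubiquitin gene induced by stress, had the lowest difference of that list, -0.34 ± 0.12. It stood at 11.559, 11.646 and 11.321 in the arrays labelled deletion, against 11.997, 11.924 and 11.624 in those labelled wild type. Array 3 was the lowest in each group, the groups overlapped, and the limma adjusted p was 0.094. With the arrays numbered 3 as a term of the fit the adjusted p was 0.0031 and without them 0.025, over a range of 1.62e-04 to 0.22. The ubiquitin genes fused to ribosomal proteins, RPL40A, RPL40B and RPS31, differed by -0.0077, 0.0081 and 0.011 and were not called.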

How the data were processed

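The authors deposited 1 linear intensity per probe set and array for 6 Affymetrix arrays. Their summarization, background correction and scaling were not given in the labels. Of 10928 probe sets 5498 stood for a single S. cerevisiae gene in the platform annotation (12 symbols were replaced by those of assembly R64); for genes with several the brightest was used, which left 5449 genes. All 10928 probe sets were quantile normalized and taken as log2(intensity + 16), a scale on which changes of dim genes are understated. The labelled group was the sole term of a limma 3.58.1 model (lmFit, eBayes; R 4.3.3), and intervals are at 95%. The background limit, 6.48, is the 95th percentile of the means of 1746 S. pombe probe sets. The fit was tested on simulated data. Exact permutation tests were two-sided. Precision is limited by there being 3 arrays per group.

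The 34 genes, their roles and the further lists were chosen with earlier results of these data known, so no p-value is given over a list. Values in each array are given for the 6 members of lowest p, the 3 highest and 3 lowest differences, and UMP1, ECM29 and RPN4. Other genes given in each array, SEM1, IRC25, UBI4, RPL40A, RPL40B and RPS31 were chosen after their values were seen. Of each further list the called genes and at most 4 others of lowest p are named, and all 6 regulators of RPN4. Alternatives covered scaling, pseudocount, dim genes, the test, the array number and leaving out arrays. A planned promoter motif search and protein comparison were not run, and sequences and coordinates are not used here.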

Additional observations from a re-analysis of the deposited data

How the results depend on the processing

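In the 19 alternatives, all planned, 0 proteasome genes were called higher, 28 of the 32 genes not called were called in none, and no called gene changed direction. The differences of 12 uncalled genes crossed 0 at least once. Medians of all 34 genes, core, base and lid stayed below 0. The values as deposited gave a median of -0.073 over the 34 genes, and 43.0% of all calls were then higher, against 53.2% in the main setting. Median centring gave 258 genes higher and 858 lower (23.1% higher), 4 proteasome genes lower (ECM29, RPN4, RPT6 and UMP1) and medians of -0.17 over the 34 genes, -0.14 in the core, -0.18 in the base and -0.14 in the lid. Without chromosome X genes 378 genes were higher and 340 lower, and the medians were -0.096, -0.074, -0.11 and -0.078, with -0.098 for the 34 genes relative to all genes. Without both arrays numbered 3, 352 genes were higher, 42.6% of the calls. With 1 array left out, 375 to 481 genes were higher and 0 to 2 proteasome genes lower. The 2 calls were both lost without ypr045c_deletion replicate 1 or 2, ECM29 alone was called without wild_type replicate 2 or ypr045c_deletion replicate 3, and UMP1 alone without wild_type replicate 3. Over these fits the median of the 34 genes ran from -0.058 to -0.032 (relative to all genes -0.090 to -0.067), that of the core from -0.044 to -0.014, that of the base from -0.092 to -0.050, that of the lid from -0.055 to -0.020, and the SD of the differences from 0.063 to 0.083. Why these values moved was not tested. Fits without some arrays or without chromosome X genes were also normalized anew. Arrays that share a number were not paired: correlations of their deviations over all genes were -0.15, -0.026 and 0.61, and over the 34 genes 0.32, 0.41 and 0.59. Deletion array 1 with wild type array 2 gave 0.48 over all genes and 0.38 over the 34. Deletion array 2 with wild type array 1 gave 0.47 and -0.27. The remaining pairs between the labels were negative in both sets of genes. Some pairs must be negative where others are positive, because deviations sum to 0 within a label. With the replicate block 697 genes were higher and 600 lower, the proteasome calls were ECM29, RPT6 and UMP1 (adjusted p = 0.022), and UBI4 was called too (adjusted p = 0.0105).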

Other observations

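The arrays also carry probe sets for S. pombe, which were not meant to be measured in these RNAs. After the data had been seen, 24 of them were found to bear the names of proteasome genes. Their means over the 6 arrays lay between 4.84 and 7.32 with a median of 5.39, and 3 of the 24 stood above the limit of 6.48, the brightest being that of rpt2. Of all 1746 S. pombe probe sets 88 stood above that limit, which was defined from them.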
